A study of Mus musculus with 9 samples.

Results

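The transcriptome described here is that of mouse embryonic fibroblasts (MEFs) labelled wild type, taken as the 3 samples whose genotype label is WT out of 9 samples in the series. The labels give strain C57BL/6 and culture in DMEM with 10% FBS, and they name no treatment of these cells, no passage number and no embryo age. They list wildtype mice among the sources of the cells, next to Sirt6-/-, P53-/- and Atm-/-P53-/- mice, without tying a source to a sample. The study's methods describe primary MEFs and immortalized mutant lines and do not say which were sequenced, so whether the WT cells were primary cannot be read from them. Neither source says whether the 3 WT samples came from separate embryos or cultures, so every spread given below is the spread between these samples and may be technical. Poly(A) RNA was selected with oligo(dT) beads and sequenced on Illumina instruments, and the data are a read count and an RPKM value for each of 24341 listed genes. RPKM are reads per kilobase of a listed transcript length, scaled to the reads of the sample. The WT samples held 33837949, 33156455 and 33247598 reads in replicates 1, 2 and 3. Where 0 reads were counted, about 3 reads was taken as the upper limit on the expected count (counting error only). For a gene of 2000 listed bases, 3 reads correspond to 0.0443 to 0.0451 RPKM. Unless stated otherwise, values are RPKM in the order replicate 1, 2 and 3, and errors are SD over the 3 samples. A gene is called expressed where it reached 1 RPKM in each WT sample, and silent where it had 0 reads in all of them.

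Fibroblasts are mesenchymal cells that build connective tissue. They secrete fibrillar collagens, fibronectin and proteoglycans, modify and cross-link these outside and inside the cell, and pull on the resulting matrix through integrins and actin filaments. MEFs are prepared from whole embryos after removal of some organs, divide rapidly in serum for a limited number of passages, and can hold other cell types of the embryo. In bulk RNA, few cells with a high level of a gene and many cells with a low level cannot be told apart.

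Promoters of expressed and silent genes differed in their content of CpG, the dinucleotide C followed by G. A 300-base window from 250 bases before to 50 bases after the RefSeq transcript start (GRCm38.p6) was used for 17059 of the listed genes (70.1%). The ratio of observed to expected CpG had a median of 0.796 over 8001 expressed genes and of 0.204 over 5146 silent genes, against 0.581 over all windows. A ratio of at least 0.6 was found in 78.4% of expressed, 36.0% of in-between and 12.2% of silent genes. Among genes with reads, the median ratio was 0.753 at a mean of 1 to 10 RPKM, 0.817 at 10 to 100, 0.833 at 100 to 1000 and 0.837 at 1000 or more, so most of the difference lay between silent and expressed genes and little among expressed ones. To show this, the 100 bases before the start are printed for 5 abundant genes and 3 silent ones, with every CpG in capitals. The abundant ones were Actg1 (gamma-actin; chr11:120348496-120348595, minus strand), Ppia (cyclophilin A; chr11:6415767-6415866, plus strand), Vim (vimentin; chr2:13574211-13574310, plus strand), Col1a2 (a type I collagen chain; chr6:4505518-4505617, plus strand) and Acta2 (smooth muscle alpha-actin; chr19:34255374-34255473, minus strand).
Actg1: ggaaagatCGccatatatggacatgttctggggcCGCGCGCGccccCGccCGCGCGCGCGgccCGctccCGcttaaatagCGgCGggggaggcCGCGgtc
Ppia: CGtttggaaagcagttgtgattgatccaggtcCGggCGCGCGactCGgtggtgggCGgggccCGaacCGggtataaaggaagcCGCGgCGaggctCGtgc
Vim: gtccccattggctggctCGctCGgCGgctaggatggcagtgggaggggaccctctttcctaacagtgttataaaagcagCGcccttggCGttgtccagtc
Col1a2: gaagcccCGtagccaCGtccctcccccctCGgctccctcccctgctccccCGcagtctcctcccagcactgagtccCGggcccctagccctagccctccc
Acta2: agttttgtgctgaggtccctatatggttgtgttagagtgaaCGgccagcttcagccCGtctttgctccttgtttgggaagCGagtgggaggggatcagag
The silent ones were Alb (serum albumin; chr5:90460770-90460869, plus strand), Hbb-bs (adult beta-globin; chr7:103827929-103828028, minus strand) and Csn2 (a milk casein; chr5:87699426-87699525, minus strand), each with 0 reads in every WT sample.
Alb: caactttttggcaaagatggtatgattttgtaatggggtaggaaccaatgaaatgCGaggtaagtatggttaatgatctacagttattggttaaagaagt
Hbb-bs: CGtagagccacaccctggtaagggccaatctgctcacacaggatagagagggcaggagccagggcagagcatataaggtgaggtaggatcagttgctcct
Csn2: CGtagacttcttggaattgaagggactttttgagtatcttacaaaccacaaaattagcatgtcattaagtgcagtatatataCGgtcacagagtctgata

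These bases hold 17 CpG in *Actg1* and 13 in *Ppia*, but 5 each in *Vim* and *Col1a2* and 3 in *Acta2*. The silent genes hold 1 in *Alb*, 1 in *Hbb-bs* and 2 in *Csn2*. The ratio over the whole window was 1.12 for *Actg1*, 1.16 for *Ppia*, 0.421 for *Vim*, 0.470 for *Col1a2*, 0.270 for *Acta2*, 0.272 for *Alb*, 0.109 for *Hbb-bs* and 0.179 for *Csn2*. Housekeeping-type genes such as *Actg1* and *Ppia* thus lay far above the silent genes, whereas the *Acta2* window, of a gene at over 500 RPKM, had a ratio like that of *Alb*. The printed *Acta2* bases end at 34255473, inside the RefSeq gene, which reaches 34255585. The *Acta2* ratio therefore does not describe the bases before the outer edge of that gene. Of the 15 expressed collagen chains with a window, 33.3% had a ratio of at least 0.6, against 87.1% of 62 expressed cytosolic ribosomal protein genes. No window was used for *Col1a1*, *Thy1*, *Actb* and *Tagln*.

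Sequence letters near the start varied with level in other ways. The letters TATAAA on the gene's own strand, from 50 to 15 bases before the start, were present in 5.73% of silent and 1.05% of expressed genes (3.03% of all windows), and in 5 of the 74 windows of the 100 most abundant genes (6.76%). *Ppia* and *Vim* are among those with these letters. A run of at least 6 C or T that reaches within 3 bases of the start was present in 26 of 62 ribosomal protein windows (41.9%) and in 6 of 15 windows of expressed collagen chains, against 16.4% of all windows. Runs of this kind are known from messages whose translation follows growth signals. The letters GGGCGG on either strand were found in 68.4% of expressed and 16.9% of silent windows, whereas CCAAT on either strand was found in 39.5% of both. GGGCGG itself contains a CpG, and the windows follow the annotated start, which is not always the start used in these cells.

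Of the 24341 listed genes, 10404 were expressed (42.7%), 8296 were silent (34.1%) and 5641 lay in between. The number of genes at 1 RPKM or more was 10614, 10586 and 10598 in the 3 samples, and the number with at least 1 read was 14869, 14796 and 14842, so the samples differed by less than 1% in either count. Genes with a mean of 10 to 100 RPKM were the largest expressed class with 5544 genes, followed by 4302 genes at 1 to 10 RPKM, 706 at 100 to 1000 and 46 at 1000 or more. The 706 and 46 genes of the upper classes carried 39.8% and 16.0% of all RPKM. The RNA was concentrated but not dominated by a few messages. The 10 genes with the most reads took 5.44% ± 0.0924 of reads and the 100 genes with the most reads 19.0% ± 0.139, while 535 genes made up 50% of the summed RPKM and 4647 genes 90%. Of protein-coding genes 49.7% were expressed (10151 of 20437), of long non-coding RNAs 7.72% (153 of 1982) and of transcribed pseudogenes 12.9% (42 of 325). By chromosome, the expressed share ran from 31.3% on X to 51.1% on chromosome 8, with 4 of 48 genes on Y. A further 387 genes reached 1 RPKM in 1 or 2 of the samples and were not called expressed.

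**Figure D1:**
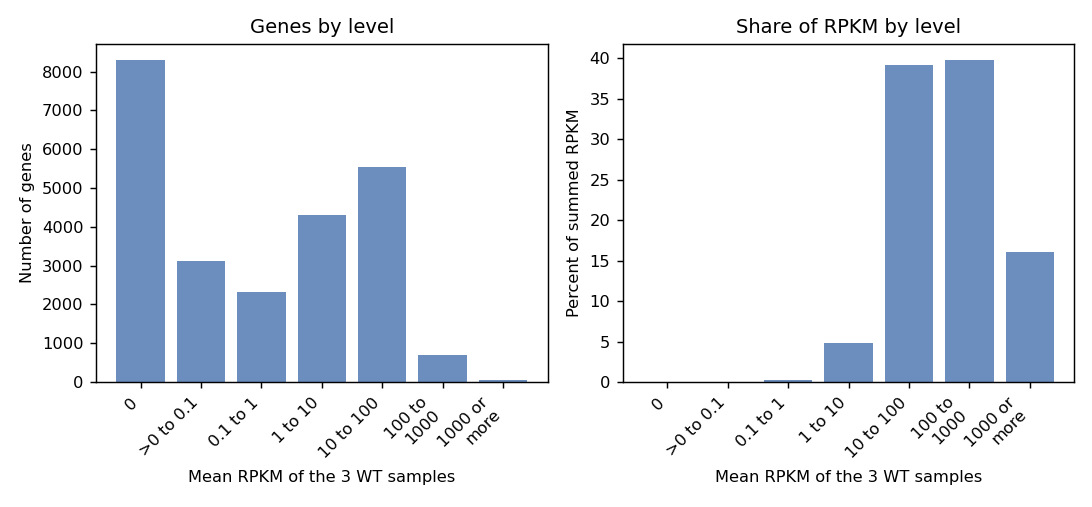
Left, number of listed genes by mean RPKM of the 3 WT samples; right, percent of the summed RPKM that each class holds, both on linear axes with no error bars. The 8296 genes at 0 reads form the tallest bar on the left, and the classes at 10 to 100 and 100 to 1000 RPKM hold 39.2% and 39.8% of RPKM on the right.

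The most abundant message was *Eef1a1*, the elongation factor that delivers aminoacyl-tRNA to the ribosome (chr9:78478453-78481724). It had 4903, 4874 and 4774 RPKM and lay above every other gene in each sample. *Rps2*, a protein of the small ribosomal subunit, came next at 2862, 2987 and 2855 and also stood clear of the gene behind it. *Actg1* (2391, 2488 and 2222), *Ppia* (2301, 2312 and 2193) and the glycolytic enzyme gene *Gapdh* (2138, 2197 and 2113) followed in this order in every sample, although the ranges of neighbours overlapped. *Gapdh* and *Vim* changed places between samples. *Vim*, the intermediate filament of mesenchymal cells (chr2:13574311-13582826), had 2022, 2303 and 2051 RPKM, and replicate 2 was the highest. The list of 25 went on with *Tpm1* (tropomyosin, 2032 ± 99.5), the calcium-binding *S100a6* (1894 ± 113), the chaperone *Hsp90ab1* (1884 ± 27.8) and *Tpt1* (1876 ± 79.3). *Col1a1*, the alpha-1 chain of type I collagen (chr11:94936224-94953042), ranked 11th in mean RPKM at 1816, 1495 and 1906, and replicate 2 was the lowest. The other places went to *Rplp0*, *Hspa8*, *Rpl12*, *S100a11*, *Rpl13*, *Actb*, *Ptma*, *Rplp1*, *Rpl23a*, the galectin gene *Lgals1*, *Ahnak*, the ferritin gene *Ftl1*, *Rpl8* and the matrix protein gene *Sparc*, from 1703 ± 27.3 down to 1251 ± 99.4 RPKM. Ribosomal protein and actin genes have near-identical pseudogenes or paralogs, and how reads shared with these were counted is not given in the sources used here.

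**Figure D2:**
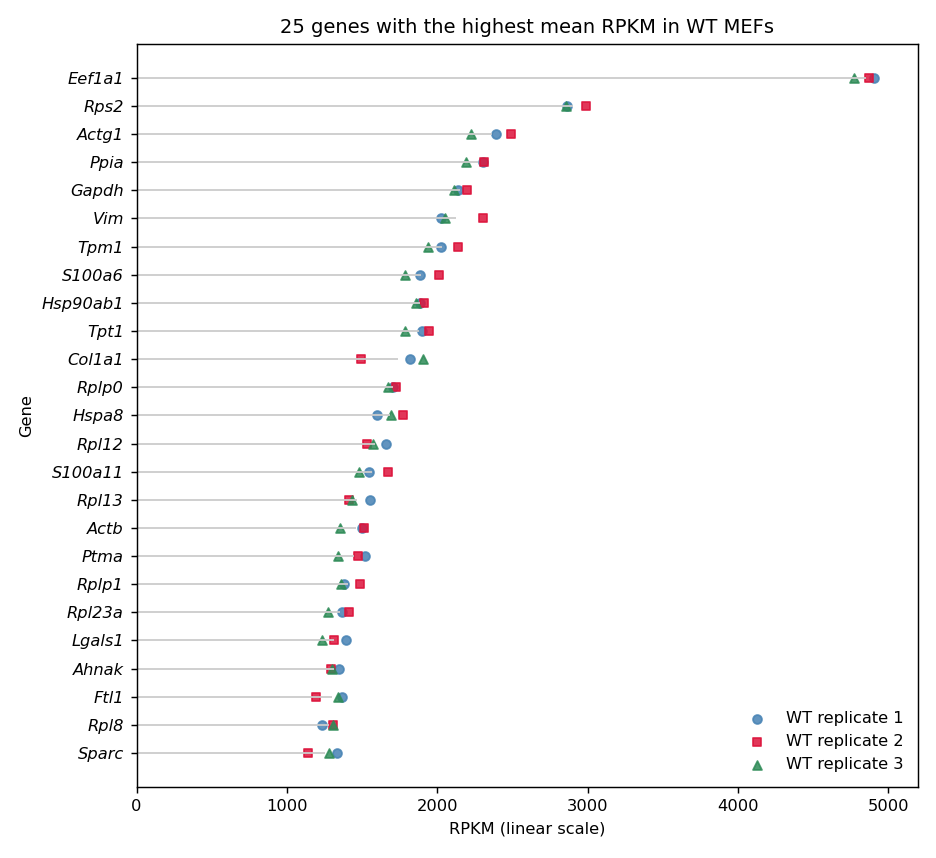
RPKM of the 25 genes with the highest mean in WT MEFs, on a linear axis, with 1 symbol per replicate and grey lines to the mean. *Eef1a1* stands alone near 4850, and replicate 2 lies above the other samples for *Vim* and below them for *Col1a1* and *Sparc*.

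Translation, cytoskeleton and matrix made up most of the top of the list. Of the 100 most abundant genes 45 encode cytosolic ribosomal proteins, 4 are S100 genes, 4 are initiation or elongation factors and 3 are collagen chains, and 93 of the 100 were among the first 100 in every sample. Counted in reads, which favours long messages, the order was *Eef1a1*, *Fn1* (fibronectin), *Col1a1*, *Hsp90ab1*, *Actg1*, *Col1a2*, *Timp3* (a metalloprotease inhibitor), *Vim*, *Col5a2* and *Hspa8*. *Fn1* had 1028, 1078 and 1037 RPKM. Listed lengths set these levels. With GENCODE M21 transcript lengths, available for 97.8% of genes, 90 of the 100 and 23 of the 25 stayed in their list. *Ahnak*, a very large scaffold protein, moved most, from 1314 to 83.1 RPKM and from rank 22 to 825, because its listed length is 1145 bases against 18100 in GENCODE. *Tpm1* fell by the same change from 2032 to 1197 and *Rpl12* from 1588 to 816 RPKM, while *Col1a1* and *Vim* came to 1378 and 1777.

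Most fibroblast markers on the list were expressed. The list was chosen with earlier results of these data known, so its count does not test the fibroblast label. Of 30 fibroblast markers 28 were expressed (93.3%, against 42.7% of all listed genes), 23 of them at 10 RPKM or more in each sample. Beside *Col1a1* and *Vim*, *Col1a2* had 925, 750 and 926 RPKM, again lowest in replicate 2. *Thy1*, a surface glycoprotein of many fibroblasts, was much less abundant at 16.0, 10.2 and 13.6 RPKM and spread over a wider relative range. Collagen-binding *Dcn* (decorin) had 349, 231 and 326 RPKM and the collagen chain *Col3a1* 432, 275 and 425 RPKM. In both, replicates 1 and 3 lay close together and replicate 2 well below. The platelet-derived growth factor receptors *Pdgfra* (25.4, 26.4 and 25.4) and *Pdgfrb* (13.1, 13.7 and 13.8) and the mesenchymal factor *Twist1* (12.5, 12.5 and 12.4) differed little between samples. *S100a4*, also known as fibroblast-specific protein, had 882 ± 48.4 RPKM and *Pdpn* (podoplanin) 123 ± 3.96. The lowest expressed markers were *Postn* (periostin, 1.62, 1.47 and 2.06) and the surface antigen *Ly6a* (5.32, 4.33 and 3.88). *Fap*, a surface protease of activated fibroblasts, was silent, and *Lum* (lumican) had 0.142, 0.0725 and 0.0723 RPKM. Replicate 2 was the lowest sample for 15 of the 28 expressed markers and the highest for 7, against 36.6% and 36.8% of all expressed genes.

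Collagen chains were expressed about as often as other genes, with 18 of 44 (40.9%, against 42.7% of all listed genes), and 6 were silent. Together they held 1.07% ± 0.137 of RPKM. Fibrillar chains led: after *Col1a1* and *Col1a2* came *Col5a2*, which co-assembles with type I collagen, at 606, 512 and 591 RPKM, and *Col3a1*. The basement membrane chains *Col4a1* (277 ± 18.0) and *Col4a2* (149 ± 13.5) and the beaded-filament chains *Col6a1* (121 ± 18.7) and *Col6a2* (96.5 ± 17.1) followed. The cartilage collagen *Col2a1* was at 0.115, 0.0352 and 0.0819 RPKM. For 15 of the 18 expressed chains replicate 2 was the lowest sample, more than the 36.6% of all expressed genes, and for 3 it was the highest.

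Genes that fold, modify and cross-link collagen were broadly present. Of 25 listed 21 were expressed (84%, against 42.7% of all listed genes) and none was silent. The collagen chaperone gene *Serpinh1* had 617, 524 and 619 RPKM, lowest in replicate 2 like the collagens. The prolyl hydroxylase subunit *P4hb* had 578, 570 and 584 RPKM, without that gap. *Ppib* (187 ± 1.30), *Plod2* (104 ± 3.93), *Crtap* (87.7 ± 3.45) and *P4ha1* (75.6 ± 8.11) act in proline and lysine hydroxylation. *Lox*, the enzyme that starts cross-linking, had 294, 244 and 298 RPKM and *Pcolce*, an enhancer of propeptide removal, 291, 252 and 294 RPKM. The propeptidase *Bmp1* had 34.7 ± 1.72. Not called expressed were the paralogs *P4ha3*, *P3h2*, *P3h3* and *Colgalt2*, of which *P3h3* read 1.24, 1.41 and 0.961 RPKM.

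Matrix receptors and remodelling enzymes were led by a few abundant members. Of 26 integrin genes 11 were expressed (42.3%, against 42.7% of all genes), led by the common beta-1 chain *Itgb1* at 281, 310 and 290 RPKM, then *Itga3* (58.8 ± 3.83) and the fibronectin receptor chain *Itga5* (50.2, 67.1 and 50.8). Of 23 matrix metalloproteases 7 were expressed (30.4%), with the membrane-anchored *Mmp14* at 113 ± 6.94 and the gelatinase *Mmp2* at 26.1 ± 0.277. Of 4 genes of their inhibitors 3 were expressed and *Timp4* had 0 reads. *Timp3* had 849 ± 32.6, *Timp1* 163, 232 and 131, and *Timp2* 129 ± 1.65 RPKM. *Timp1* was the variable one, with replicate 2 the highest. Laminins had 6 of 11 genes expressed (54.5%), led by *Lamc1* at 66.6 ± 4.51.

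Markers of other cell types on the lists used were mostly low. Over 10 lists, 19 genes were expressed. Further cell types of the embryo, such as mesothelium, had no list and were not examined. The expressed share of a list ran from 0% to 41.7%, against 42.7% of all listed genes. None of 12 endothelial, 14 neural, 9 hepatocyte or 10 pluripotency and germ cell markers was expressed, and *Tie1*, *Rbfox3*, *Alb* and *Pou5f1* were among those with 0 reads. Among them *Tubb3* (1.08, 0.961 and 1.03) and *Ddx4* (1.01, 0.630 and 0.801) lay close to the threshold. The summed level of the endothelial list was 0.950, 1.13 and 0.797 RPKM and that of the hepatocyte list 0.267, 0.156 and 0.168 RPKM, against 12103, 11244 and 12025 RPKM for the fibroblast list. Of 15 blood lineage markers 2 were expressed, the lysosomal *Cd68* (2.87, 2.51 and 2.24) and the receptor *Csf1r* (1.92, 1.79 and 1.91). The pan-leukocyte gene *Ptprc* stayed at or under 0.0343 RPKM and all 4 listed globin markers were silent. Of 15 epithelial markers 5 were expressed, with the simple keratins *Krt8* at 5.20, 4.37 and 4.49 and *Krt18* at 5.65, 4.26 and 4.65 RPKM. The epithelial adhesion genes *Cdh1* (0.482, 0.443 and 0.551) and *Epcam* (0.458, 0.642 and 0.466) lay under 1 RPKM in every sample. *Nanog*, a pluripotency factor, read 0.910, 1.26 and 0.657 RPKM and has closely related pseudogenes.

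Contractile genes were the exception to these low levels. *Acta2*, the actin of smooth muscle and myofibroblasts, had 574, 506 and 511 RPKM, and the actin-binding *Tagln* (transgelin) had 647, 679 and 627 RPKM. The calponin gene *Cnn1* (17.1 ± 0.829), *Smtn* (smoothelin, 85.7 ± 9.55) and *Actg2* (7.87 ± 1.55) were also expressed. Of the 12 smooth muscle and myofibroblast markers these 5 were expressed (41.7%, against 42.7% of all listed genes). Among the others, the myosin heavy chain *Myh11* read 0, 0.00908 and 0.0407 RPKM. The coactivator *Myocd* had reads in replicate 1 alone, at 0.0346 RPKM. *Myl9*, a myosin light chain, lay around the threshold at 0.654, 0.945 and 1.19 RPKM. Skeletal muscle regulators *Myod1*, *Myf5*, *Myog* and *Pax7* were silent, but the regulator *Pax3* was expressed, close to the threshold at 1.21, 1.27 and 1.19 RPKM. *Acta1*, the skeletal alpha-actin, read 7.10, 8.39 and 7.55 RPKM. Actin genes are alike in coding sequence, and how reads shared between them were counted is not given in the sources used here. For fat, *Lpl* (lipoprotein lipase) had 48.0, 30.0 and 38.5 RPKM and the fatty acid carrier *Fabp4* 8.29 ± 1.45, while the master regulator *Pparg* was at 0.0538 ± 0.0190. For bone, *Runx2* had 9.36, 11.7 and 10.1 RPKM, its downstream factor *Sp7* 0.0918 ± 0.0354.

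**Figure D3:**
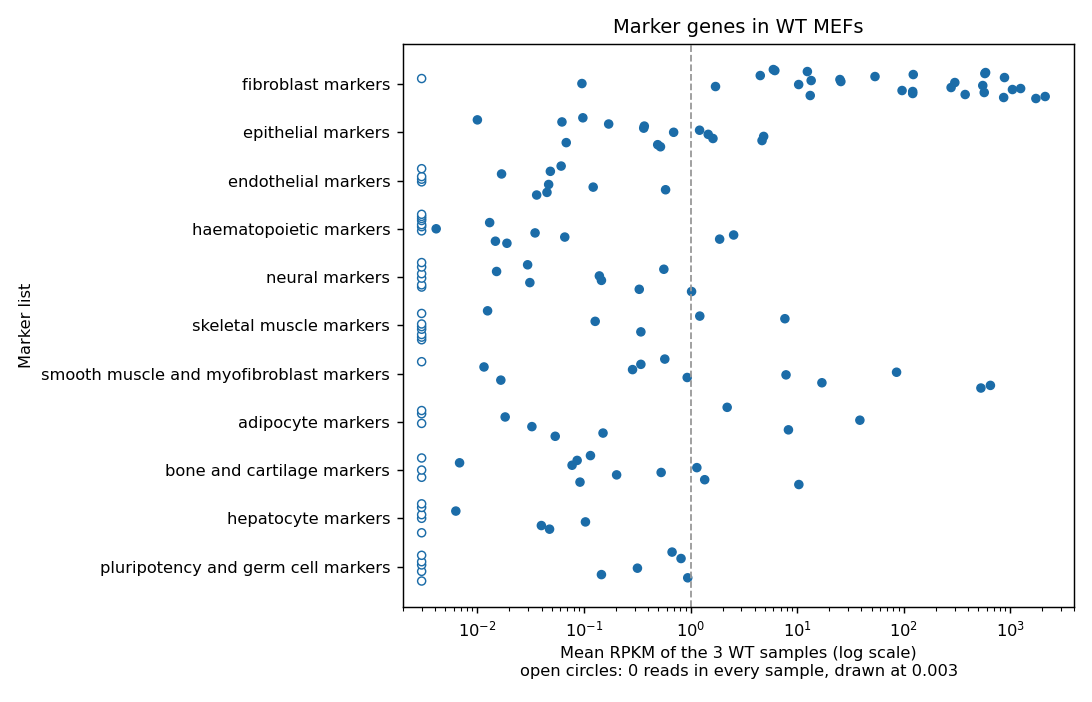
Mean RPKM over the 3 WT samples of each marker gene, by marker list, on a log axis; the dashed line is 1 RPKM and open circles are genes with 0 reads in every sample. Fibroblast markers reach 2125 RPKM, and outside them only *Acta2* and *Tagln* exceed 100 RPKM.

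Factors that set mesenchymal identity were present at modest levels. Of 24 listed, 18 were expressed (75%, against 42.7% of all listed genes) and 3 silent (*Tcf21*, *Meox1*, *Meox2*). *Creb3l1*, which activates secretory and collagen genes, was the most abundant at 29.0, 28.5 and 33.3 RPKM, followed by the repressors *Snai1* (20.2, 28.1 and 22.0) and *Zeb2* (12.8, 14.0 and 12.5). The T-box factors *Tbx18* (11.0 ± 1.17) and *Tbx15* (10.8 ± 0.720) of trunk and limb mesenchyme lay close to each other, and the paired-type homeobox gene *Prrx1* had 5.98 ± 0.263. The ranges of *Tbx18* and *Tbx15* overlapped.

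Hox genes, which record position along the body axis, were partly on. Of 39 listed, 14 were expressed (35.9%, against 42.7% of all listed genes). The 5 with 0 reads (12.8%, against 34.1% of all) were *Hoxb1*, *Hoxc4*, *Hoxc5*, *Hoxc8* and *Hoxd12*. *Hoxd8* led at 20.2, 18.9 and 23.5 RPKM, and no other member's range touched it. Next came *Hoxd9* (8.09, 7.75 and 8.30), *Hoxc13* (7.08, 5.90 and 7.29) and *Hoxb2* (6.76, 7.11 and 5.56), of which the last 2 overlapped. Within the HoxC cluster *Hoxc13* was expressed, while its neighbours *Hoxc12* and *Hoxc11* had at most 2 reads in any sample. In the HoxD cluster *Hoxd3*, *Hoxd4*, *Hoxd8* and *Hoxd9* were expressed and *Hoxd10* (0.319, 0.390 and 0.308), *Hoxd11* and *Hoxd13* were not.

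Of 58 receptor tyrosine kinases 28 were expressed (48.3%, against 42.7% of all genes) and 11 were silent. *Axl*, the receptor of Gas6, led at 145, 152 and 143 RPKM, then the Wnt co-receptor *Ryk* at 104, 93.5 and 106, with no overlap between them. *Ddr1*, a collagen receptor, had 60.6, 58.0 and 60.7 RPKM and *Ptk7*, a planar polarity receptor, 58.7, 53.4 and 57.5, and these ranges overlapped. *Epha2* (52.8 ± 4.32), *Egfr* (54.0, 49.7 and 52.7) and the hepatocyte growth factor receptor *Met* (49.2, 48.9 and 51.1) came next and overlapped each other. The place of *Egfr* depends on its listed length of 2678 bases, against 10208 in GENCODE. For *Epha2* (3932 and 3913) and *Met* (6652 and 6809) the 2 lengths were close. *Flt4*, best known as a receptor of lymphatic endothelium, had 19.9, 17.4 and 20.6 RPKM, whereas the blood vessel receptors *Kdr* (0.531, 0.745 and 0.473) and *Flt1* (0.136, 0.177 and 0.0526) lay under 1. Silent members included *Erbb4*, *Flt3*, *Ntrk2* and *Musk*.

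Among the growth factor, cytokine and binding protein families, *Igfbp3*, a carrier of insulin-like growth factors, was the most abundant at 513, 401 and 556 RPKM, lowest in replicate 2. The chemokine *Cxcl12*, typical of stroma, had 383, 343 and 369 RPKM and *Ccl2*, which attracts monocytes, 171, 138 and 155 RPKM. Of 37 chemokines 7 were expressed (18.9%, against 42.7% of all listed genes). *Fgf5* (115 ± 9.52), *Bmp4* (52.9 ± 8.03), *Tgfb3* (43.4 ± 2.57), *Inhba* (41.4 ± 2.45) and *Wnt4* (21.4 ± 0.746) led their families. Expressed members numbered 5 of 22 FGF (22.7%), 9 of 33 TGF-beta family (27.3%) and 4 of 19 Wnt ligands (21.1%), all below 42.7%. Of 10 Frizzled receptors for Wnt 7 were expressed (70%), with *Fzd6* at 33.4 ± 0.993. Of 33 interleukins 2 were expressed, *Il6* (4.78, 7.75 and 4.91) and *Il33* (1.82 ± 0.173), and all 18 type I interferons had 0 reads. Toll-like receptors had 3 of 12 expressed, with *Tlr4* at 5.63, 4.18 and 5.71.

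The cultures carried the messages of dividing cells. All 17 proliferation genes were expressed (100%, against 42.7% of all listed genes), each at over 10 RPKM in every sample. *Pcna*, the sliding clamp of DNA replication, had 298, 337 and 322 RPKM. *Mki67*, a protein of cycling nuclei, had 39.8, 38.7 and 39.2, *Top2a* (topoisomerase II) 103 ± 3.61 and the cyclin *Ccna2* 112 ± 1.89 RPKM. *Mki67* and *Ccna2* hardly varied, whereas *Rrm2*, a subunit of ribonucleotide reductase, read 92.1, 119 and 92.4, highest in replicate 2. That sample was the highest for 12 of the 17 and the lowest for 3, against 36.8% and 36.6% of all expressed genes.

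Brakes on the cell cycle were present at the same time, with 11 of 12 expressed (91.7%, against 42.7% of all listed genes). *Trp53*, the gene of p53, had 112, 114 and 105 RPKM, and its ubiquitin ligase *Mdm2*, a p53 target, 32.8, 31.2 and 30.8. *Cdkn2a*, which encodes p16 and p19Arf and is known to accumulate in cultured MEFs, had 76.3, 66.2 and 77.5 RPKM, a sum over its transcripts. *Cdkn1a*, the p21 gene and a p53 target, was the variable member at 20.3, 12.9 and 11.8, with replicate 1 apart from the others. *Cdkn2b* (34.1 ± 1.39) and *Cdkn1b* (30.3 ± 1.41) varied little. *Cdkn1c*, an imprinted inhibitor, had 0 reads, and the imprinted *Igf2* (0.190, 0.201 and 0.171), looked up after the other values were seen, lay under 1 RPKM.

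The Y-linked genes *Ddx3y* (46.8, 44.2 and 49.9), *Eif2s3y* (47.5, 38.3 and 41.8), *Kdm5d* (8.30, 6.67 and 7.22) and *Uty* (7.01, 6.78 and 7.80) were expressed in all 3 samples. *Xist*, the RNA of the inactive X chromosome, had 146, 83 and 133 reads, or 0.241, 0.139 and 0.223 RPKM. The 3 samples were thus alike in both, and male cells were present in each.

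In glycolysis 1 or a few isozymes per step were expressed. Of 27 genes 17 were expressed (63.0%, against 42.7% of all listed genes) and 7 were silent. Among the silent ones were *Hk3*, *Gapdhs*, *Pgk2*, *Pklr* and *Ldhc*, forms of liver, blood cells or sperm. *Pkm* (1012 ± 44.1), *Pgk1* (562 ± 23.1), *Ldha* (469 ± 22.3), *Pgam1* (450 ± 16.6) and *Aldoa* (444 ± 7.12) came after *Gapdh*. The hexokinases were far lower, *Hk1* at 12.1, 12.1 and 11.3 and *Hk2* at 15.8, 13.2 and 13.7 RPKM, and their ranges did not overlap. *Ldhb*, the other subunit of lactate dehydrogenase, had 6.59, 5.52 and 6.35 RPKM.

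Across 61 gene families picked by symbol, the expressed share went from all to none, against 42.7% of all listed genes. All members were expressed for mitochondrial ribosomal proteins (76), complex I subunits (37), ATP synthase subunits (17) and tropomyosins (4). Cytosolic ribosomal proteins had 83 of 87 expressed and held 13.2% ± 0.318 of RPKM. Splicing factors of the hnRNP and SR families had 30 of 31 expressed, led by *Hnrnpa1* at 768 ± 44.5, and initiation and elongation factors 49 of 53, led by *Eef1a1* and *Eif5a* (955 ± 53.6). Proteasome subunits had 35 of 39 expressed, led by *Psmb4* at 250 ± 5.11. The members not expressed included paralogs known from other tissues, namely *Eef1a2*, the form of neurons and muscle, the testis-type ribosomal genes *Rpl10l* and *Rpl39l*, the thymus-type subunit *Psmb11* and the testis-type subunit *Psma8*. The interferon-inducible subunits *Psmb8* and *Psmb9* were likewise low, with at most 0.344 and 0.0745 RPKM in any sample. With *Psmb11* and *Psma8* they were the 4 proteasome members not expressed. A further inducible subunit, *Psmb10*, was not among these 4.

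At the other end, 18 families had no expressed member, and in 5 every member had 0 reads: microRNA genes (1169), major urinary proteins (20), type I interferons (18), trace amine receptors (15) and globins (10). The listed microRNA genes are at most 139 bases long and stand for small RNAs that oligo(dT) selection does not aim at, so their 0 reads say nothing about mature microRNAs. Of 1103 olfactory receptors 1072 were silent (97.2%, against 34.1% of all genes) and 1 was expressed, *Olfr613* at 2.28, 2.33 and 2.52 RPKM. Of 330 vomeronasal receptors 310 were silent and 1 was expressed, *Vmn1r58* at 2.87, 2.57 and 2.30. Both exceptions exceeded 2 RPKM in every sample. Olfactory and vomeronasal receptors, microRNA and small nucleolar RNA genes together were 2655 of the 8296 silent genes (32.0%). Ion channel families of excitable cells had no expressed member among 32 voltage-gated potassium channels, 9 voltage-gated sodium channels and 16 ionotropic glutamate receptors. *Chrnb1*, a subunit of the muscle acetylcholine receptor, was the exception among 16 nicotinic receptor genes at 11.5, 8.86 and 10.0 RPKM. Of 67 clustered histone genes 6 were expressed, with *Hist1h2bc* at 15.3 ± 0.787. Most histone messages of dividing cells lack a poly(A) tail.

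Families of epithelial surfaces were mostly off. Of 48 keratins 6 were expressed (12.5%, against 42.7% of all listed genes), led by *Krt7* (12.0, 8.48 and 10.2) and *Krt80* (9.54, 10.0 and 10.9). None of 53 keratin-associated proteins was expressed. Of 23 claudins 3 were expressed, with *Cldn12* at 36.6, 44.5 and 38.2. Cadherins had 4 of 23 expressed, the mesenchymal *Cdh11* (99.4, 91.7 and 99.5), *Cdh3* (92.6, 74.0 and 85.5) and *Cdh2*, or N-cadherin (64.9, 70.9 and 65.6), each over 60 RPKM, and *Cdh24* (3.18 ± 0.167). *Cdh3*, P-cadherin, is otherwise known from basal epithelium and its range stayed above that of *Cdh2*.

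**Figure D4:**
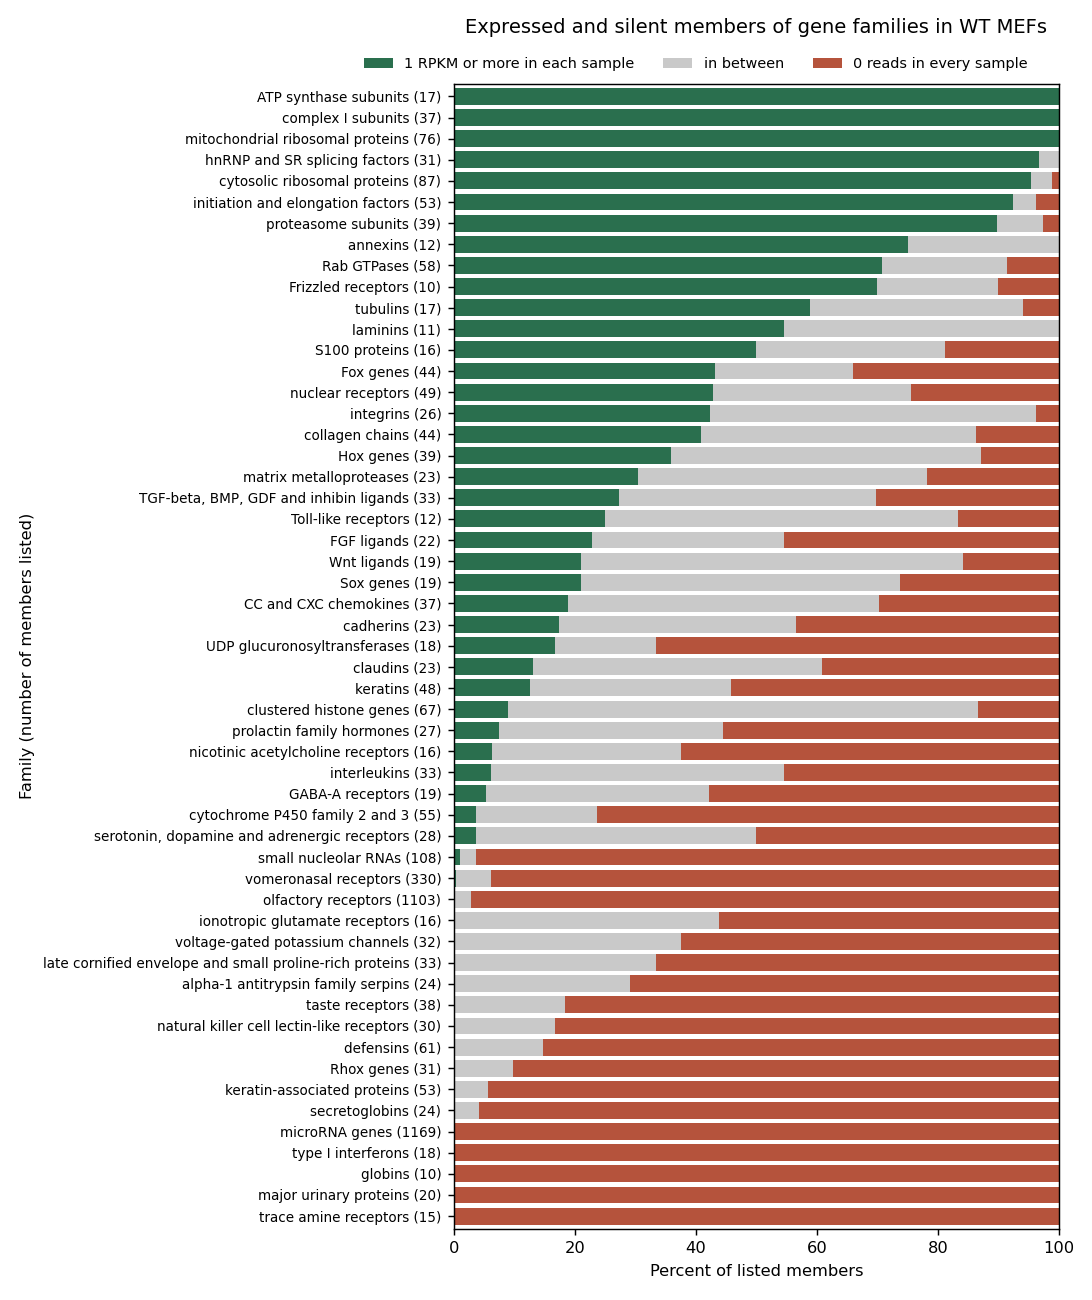
Percent of the listed members of each gene family with at least 10 members that were expressed (green), in between (grey) or at 0 reads in every WT sample (red), with the number listed in brackets. The share expressed runs from 100% for complex I, ATP synthase and mitochondrial ribosomal proteins to 0% for type I interferons, globins, major urinary proteins and trace amine receptors.

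The 3 WT samples were close to each other, and replicate 2 was the farthest. The coefficient of variation (CV, SD over mean) of expressed genes had a median of 5.81% and was under 10% for 8072 of them (77.6%). By level, the median was 8.76% at 1 to 10 RPKM, 4.83% at 10 to 100, 4.10% at 100 to 1000 and 4.74% at 1000 or more. For 6269 genes with at least 10 RPKM and 300 reads on average, the median CV left after taking out counting error was 4.21%, and 779 of them (12.4%) had none left. The SD of the difference in log2(RPKM + 1) over expressed genes was 0.18 between replicates 1 and 2, 0.13 between 1 and 3 and 0.17 between 2 and 3. Over 2-fold differences between the lowest and the highest sample occurred in 33 expressed genes (0.317%). Replicate 2 was the sample apart in 28 of the 33, lower in 16 and higher in 12, and without it the count over 2-fold was 3, against 19 without replicate 1 and 28 without replicate 3.

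Named genes show what set replicate 2 apart. Among well-counted genes *Tnfsf18*, a ligand of the tumor necrosis factor family, spread most at 38.9, 14.5 and 35.6 RPKM. *Aldh1a1*, which makes retinoic acid, read 77.4, 40.1 and 76.1 and *Fam180a* 14.4, 6.38 and 13.8. In all of these replicate 2 was the low sample. *Spp1* (osteopontin) was high there at 73.8, 155 and 85.5, as were the chromatin protein gene *Hmga2* at 115, 206 and 113 and the growth factor gene *Hbegf* at 9.88, 16.5 and 9.12. *Angptl2* (11.5, 18.0 and 10.5) moved in the same direction. *Serpinb2*, a protease inhibitor named after its values were seen, read 4.91, 17.6 and 4.96. The placental-type hormones *Prl2c2* (2.77, 8.11 and 3.04) and *Prl2c3* (3.29, 7.81 and 3.59) were higher there too, and are near-identical copies that can share reads.

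Short messages leaned the same way. *Rps29* (107, 190 and 99.3), *Rps28* (292, 460 and 264) and *Atp5k* (31.4, 52.1 and 31.0), with listed lengths of 390, 327 and 292 bases, were also among the 10 genes of largest spread, and replicate 2 was the highest for 63 of the 83 expressed cytosolic ribosomal proteins against 36.8% of all expressed genes. Over 82 expressed genes of 300 to under 500 listed bases the median ratio of replicate 2 to the mean of the others was 1.13, over 704 genes of 500 to under 1000 bases 1.03, and over 3012 genes of 4000 or more bases 0.988. The part of message length in the difference of replicate 2 was not tested gene by gene. *Spp1*, *Hmga2* and *Hbegf* have 1423, 4176 and 2375 listed bases, and *Tnfsf18*, *Aldh1a1* and *Fam180a* 2064, 2032 and 1528, so these are not short.

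**Figure D5:**
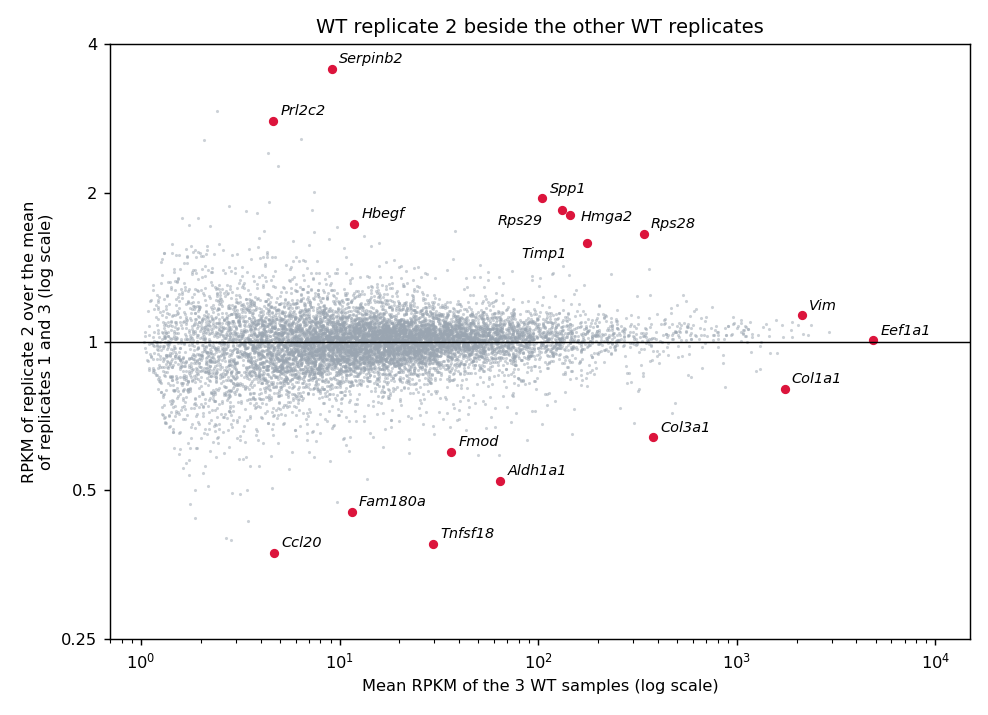
For each expressed gene, RPKM of WT replicate 2 over the mean of replicates 1 and 3 (log scale) against mean RPKM (log scale), with named genes in red. Most genes lie near 1, *Serpinb2*, *Spp1* and *Hmga2* lie above, and *Tnfsf18*, *Aldh1a1*, *Col3a1* and *Col1a1* lie below.

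Other samples stood apart in few genes, of which *Rn45s* and *Lars2* were named after their values were seen. *Cdkn1a* was higher in replicate 1, while *Rn45s*, the ribosomal RNA precursor, was lower there at 12.1, 18.1 and 20.3 RPKM. *Lars2*, a mitochondrial leucyl-tRNA synthetase, read 4.40, 8.79 and 8.75. At the steady end, *Nle1*, a ribosome assembly factor, had 23.8, 23.7 and 23.8 RPKM and *Rpl4* 1121, 1119 and 1120. *Shcbp1* (30.9, 30.8 and 30.9), the nuclear pore gene *Nup54* (39.1, 39.2 and 39.0) and the cell cycle gene *Cdc27* (22.5, 22.5 and 22.6) were as even, with a spread no larger than counting error allows. All 18 common reference genes were expressed, each at 10 RPKM or more in every sample, with a median level of 265 RPKM. Their median CV was 4.47%, against 5.81% over all expressed genes. Over all genes at 10 to 100 RPKM it was 4.83%, and at 100 to 1000 RPKM 4.10%. The reference genes were thus about as even as genes of like level. Among them *Actb* had 1502, 1515 and 1354 RPKM.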

How the data were processed

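The 3 WT samples were used, grouped by their genotype label. Per the file headers and the labels, the authors deposited whole-number read counts per gene without normalization, and RPKM, which the authors made from those counts, a listed transcript length and 1 read total per sample. The deposited RPKM were recomputed from the counts to within 5.37e-05%, with read totals 27932 to 74171 above the sums of the counts. The submitters' processing notes name build mm10. The aligner, counter, annotation and counting strand are not given in the sources used here. Samples held 33156455 to 33837949 counted reads.

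Means, SDs and CVs were computed in Python 3.11.15 with pandas 2.3.3. A gene was expressed at 1 RPKM or more in each sample and silent at 0 reads in all. The counting part of a CV was taken as the Poisson error of the counts. No comparison between groups and so no test was made. A pseudocount of 1 was used on the log2 scale. Scaling by edgeR 4.0.16 (TMM) and DESeq2 1.42.0 size factors served as an alternative, as did TPM, other thresholds and leaving out each sample. Positions were taken from RefSeq GRCm38.p6 by transcript accession (99.0% of genes), promoter windows from RefSeq, and second lengths from GENCODE M21; where several windows were given, the outermost was used. The CV computation was tested on simulated counts. The genes named were the 25 highest by mean RPKM, the 10 highest by reads, members of the marker, pathway and family lists, up to 3 leading members per family and those that stood out, and the 10 largest and 10 smallest CVs beyond counting among genes with at least 10 RPKM and 300 reads. The members and lists were chosen with earlier results of these data known. Knockout samples were not used.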

Additional observations from a re-analysis of the deposited data

How the results depend on the processing

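Of 61 recomputed values under alternatives, 48 stayed within the limit set for them. For counts the limit was 1.5 times, and for shares of reads or RPKM the SD over the 3 samples. For the median CV it was the SD of the 3 values with a sample left out. For the SD between pairs it was the SD of the 3 pair values. The number of expressed genes ranged from 8017 (5 RPKM) to 12122 (10 reads in each sample), and was 10254 with GENCODE M21 lengths, an alternative chosen after seeing the data. Without microRNA and small nucleolar RNA genes, also chosen after seeing the data, 7023 genes were silent. Markers of other cell types numbered 19 at 1 RPKM, 9 at 5 RPKM and 31 at 1 TPM, a lower bar since RPKM sum to 428245 to 436803 per sample here, so which of them count as expressed depends on the threshold. The median CV of 5.81% became 9.36% over all genes with any read, and 3.97% to 5.13% with each sample left out. The 33 genes over 2-fold became 4 above 5 RPKM, 355 at 1.5-fold and 1605 among all genes with a read in each sample. With each sample left out they became 3 to 28. A median CV and a count over 2-fold tend to be lower over 2 samples than over 3, so these falls are partly built in. Leaving out replicate 2 gave the lowest value of both. The mean SD between pairs on the log2 scale was 0.16, against 0.19 with a pseudocount of 0.1 and 0.13 without the filter. Scaling by TMM or size factors gave a median CV of 5.80% and 33 genes over 2-fold. No paired analysis was possible because 1 group was used and no test was made. Genes under 0.1 RPKM rest on few reads, and levels between genes depend on the listed lengths.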
